A study of Mus musculus with 2 samples.

Results

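The set described here holds 633 spliced transcripts of annotated genes that each carry a splice site absent from the annotation and that were read in both libraries. They are the deposited transcript models labelled NNC, the label for models with at least 1 unannotated splice site, in a gene labelled as known. An intron chain, the ordered series of introns of a model, was kept where it was present with that label in both libraries and had at least 3 reads in each. By this rule 633 of 40670 such chains were kept, from 560 genes. Of the 40670 chains, 22655 were in replicate 1, 21778 in replicate 2 and 3763 in both. The members were thus chosen by their read counts in these 2 libraries, so their presence in both is the rule and no result.

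The study sequenced whole RNA molecules, copied to cDNA, from mouse hippocampus with long reads. It holds 1 group of 2 libraries and no second condition. Both libraries come from female B6CASTF1/J mice aged 14 days, without treatment in the labels, and the source is labelled as a layer of the hippocampus. B6CASTF1/J names F1 hybrids, whose 2 parental genomes differ in sequence, and the deposited counts do not separate the parental alleles. Each library was made from a pool of 3 animals and 2 µg of RNA, with added spike-in RNA. The sample descriptions number the animals of the libraries differently in one field and identically in another, so separate animals are given by 1 of 2 fields. Replicate 1 held 1168366 reads and replicate 2 held 888704, so that 1 read equals 0.856 and 1.13 CPM (counts per 1e6 reads of the table). All 13 hippocampal marker genes checked, among them the dentate granule cell gene Prox1 and the glutamate transporter gene Slc17a7, were read in both libraries, but Prox1 had 6.85 and 38.3 CPM in replicates 1 and 2, and C1ql2, another dentate gene, 81.3 and 142. The part of this difference in the values below was not tested. In such bulk RNA, fewer cells of a type and less RNA per cell cannot be told apart.

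An intron begins at a donor site, nearly always with the letters GT in the DNA, and ends at an acceptor site, nearly always with AG. A minor share of donors has GC. Where another GT or AG stands close to a site, the splicing machinery can join the exons there instead, which shifts the end of an exon by a few bases. Acceptors with 2 AG a single codon apart, called NAGNAG acceptors, are the best known case, and neurons are known for exons so short that they are called microexons. Where reads are aligned across introns, a few bases can at times be placed on either side of an intron, and very short exons are hard to place, which are known properties of such data.

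The letters below are those of the reference and show where the reads were placed. They were read from annotated GENCODE M21 transcripts and RefSeq promoter windows, both of the GRCm38 (mm10) build, since no genome sequence of that build was used here. All are written 5′ to 3′ on the strand of the gene. The 6 pairs that follow show the commonest pattern among highly read members: an annotated exon of at most 20 nt was not in the chain, and the exon beside it was longer instead. In the first line of a pair capitals mark the short annotated exon. In the second they mark the bases that the shifted site added. The coordinates are those of the capitals.
Pitpna, annotated join, chr11:75603725-75603735, plus strand: cagaaccgTGATTACAAAAaatgagta
Pitpna, recurrent join, chr11:75603481-75603484, plus strand: cagaaccgGTGAaatgagta
Idh3g, annotated join, chrX:73782298-73782309, minus strand: tttcctcaCAACAAACAATTcctccatc
Idh3g, recurrent join, chrX:73782671-73782674, minus strand: tttcctcaGTAAcctccatc
Capn2, annotated join, chr1:182482536-182482547, minus strand: tctatgagGTTCCAGAGGAGctaacagg
Capn2, recurrent join, chr1:182484186-182484202, minus strand: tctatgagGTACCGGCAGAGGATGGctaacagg
Chmp1a, annotated join, chr8:123210216-123210235, minus strand: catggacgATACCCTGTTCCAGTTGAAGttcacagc
Chmp1a, recurrent join, chr8:123212641-123212665, minus strand: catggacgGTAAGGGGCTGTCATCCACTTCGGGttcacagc
Mrpl33, annotated join, chr5:31614603-31614621, plus strand: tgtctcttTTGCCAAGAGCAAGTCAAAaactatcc
Mrpl33, recurrent join, chr5:31614023-31614030, plus strand: tgtctcttGTAAGTCGaactatcc
Rwdd4a, annotated join, chr8:47547972-47547974, plus strand: tcgtgaagCATttaagcaa
Rwdd4a, recurrent join, chr8:47550692-47550694, plus strand: tcgtgaagCAGttaagcaa

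The next set shows sites that moved by a few bases without this pattern of a short exon run past. Short exons placed in other ways were not searched for. Capitals mark the bases between the new and the annotated site, and the flanks are 10 bases each. The donors of Dctn2, Fth1, Cst3, Calm2 and Apoe moved downstream, so their capitals are added to the exon. The donors of Zer1 and Ntsr2 moved upstream, so their capitals are lost from it. In Ap2a2, Ewsr1 and Hif1a the acceptor moved upstream and the capitals are added. In Puf60, Mettl9 and Slc17a7 it moved downstream and the capitals are lost.
Dctn2 donor, chr10:127267473-127267502, plus strand: gtttgatgcgGTAAGACTGTgtgctacctc
Fth1 donor, chr19:9984318-9984341, plus strand: ggatataaagGTAAgtagatccta
Cst3 donor, chr2:148872803-148872826, minus strand: tctgatgaggGTAGgtacttgata
Calm2 donor, chr17:87435777-87435800, minus strand: gatgcggatgGTGAgtgtttaatt
Apoe donor, chr7:19697465-19697488, minus strand: aagaactgacGTGAgtgtccagct
Zer1 donor, chr2:30107485-30107510, minus strand: ctaccaggagGTGACGgtgagcccct
Ntsr2 donor, chr12:16656854-16656880, plus strand: cagcgcccagGTTCTCAgttaagtcct
Ap2a2 acceptor, chr7:141611323-141611345, plus strand: tcctgcccagAAGaccctgcggt
Ewsr1 acceptor, chr11:5079510-5079532, minus strand: atccccccagCAGcgctggagag
Hif1a acceptor, chr12:73926544-73926566, plus strand: ttttgttaagTAGgatgagttct
Puf60 acceptor, chr15:76077690-76077712, minus strand: ctgcctgcagCAGgtcaatggcc
Mettl9 acceptor, chr7:121076120-121076142, plus strand: tttgttctagTAGgtggcaagtg
Slc17a7 acceptor, chr7:45170837-45170860, plus strand: cccccctcagGCAGcttcgggatc

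The last set shows introns that were placed within an annotated exon. Capitals mark the first and the last letters of the intron, with 10 bases on each side of its ends. Zdhhc18 is shown for an intron with a repeat of 2 nt at its ends, and Gm15446 for a repeat of 47 nt and for its AT end.
Zdhhc18 intron, donor end, chr4:133608664-133608683, minus strand: cgccagcatgGTaggaggcc
Zdhhc18 intron, acceptor end, chr4:133606571-133606590, minus strand: tctcctccAGgaggacactt
Gm15446 intron, donor end, chr5:109942196-109942215, plus strand: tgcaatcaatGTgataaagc
Gm15446 intron, acceptor end, chr5:109942280-109942299, plus strand: tgtaatcaATgtgataaagc

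The 633 chains held 8603 reads in replicate 1 and 7264 in replicate 2. These were 0.736% of all reads in replicate 1 (95% Clopper-Pearson interval 0.721% to 0.752%) and 0.817% in replicate 2 (0.799% to 0.836%). Such intervals cover counting error only, as the reads carry no molecular identifiers in the sources used here. Of all reads of unannotated-site chains in annotated genes, the members held 22.3% of 38525 in replicate 1 and 21.6% of 33652 in replicate 2. The chains had 2 to 48 exons with a median of 9, and their models were 361 to 10244 nt long with a median of 2435 nt. Protein-coding genes held 614 of them. Most members were rare: the lower of the 2 read counts was 3 for 221 chains, 4 for 121 and 5 for 63, with a median of 4 and a maximum of 320. Just outside the threshold stood 548 chains with a lower count of 2, and a further 2582 with a lower count of 1.

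The most read member was a transcript of Pitpna, which encodes a carrier of phosphatidylinositol between membranes (ENSMUSG00000017781.17). Replicate 1 held 422 reads of it and replicate 2 held 320, or 361 ± 0.787 CPM (SD, n = 2). Vdac3, a channel of the outer mitochondrial membrane, followed with 341 and 220 reads (270 ± 31.3 CPM). Cct6a, a subunit of the cytosolic chaperonin, had 299 and 247 reads (267 ± 15.6 CPM), Dctn2, a subunit of the dynactin motor adaptor, 301 and 231 (259 ± 1.63 CPM), and Rab3a, a small GTPase of synaptic vesicles, 309 and 201 (245 ± 27.1 CPM). Below these 5 the counts fell to 152 and 106 for Ergic3, a protein of the early secretory pathway. Of the 20 chains with the highest mean CPM, 10 ran across a short annotated exon with a shifted site beside it, as in the first set of sequences.

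**Figure D1:**
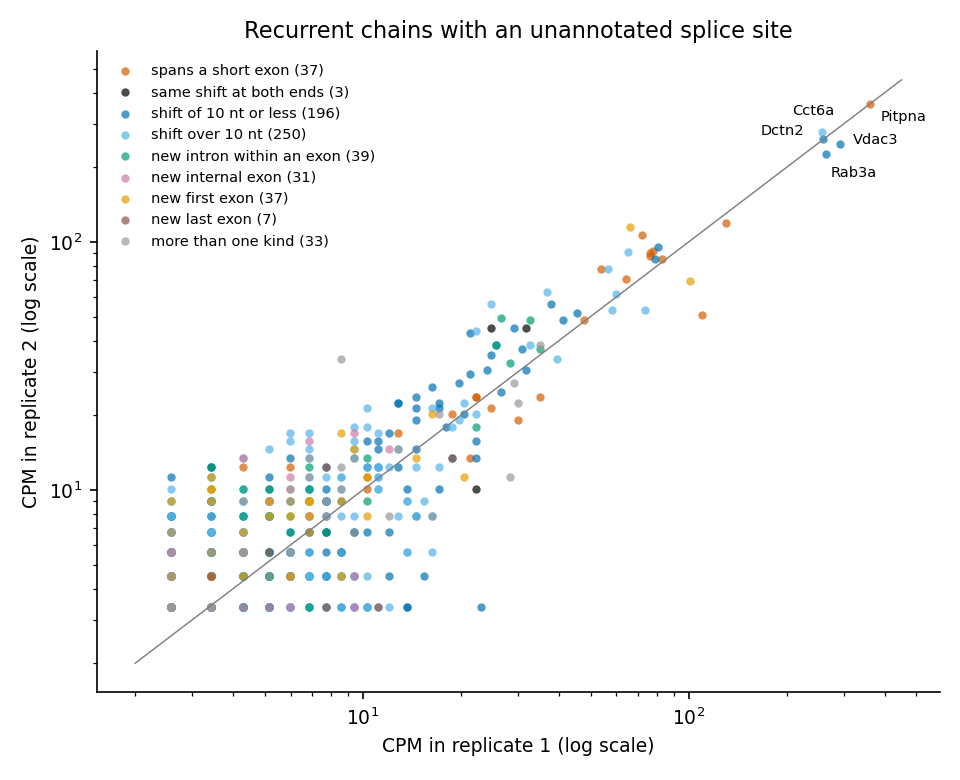
CPM of each of the 633 recurrent chains in replicate 1 (horizontal) against replicate 2 (vertical), both axes logarithmic, with 1 point a chain coloured by kind of change and a line where both are equal. Most points lie above the line, with a median ratio of replicate 1 to replicate 2 of 0.761. Pitpna is highest at 361 and 360 CPM, and the points spread out towards the threshold of 3 reads.

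The rule asked for 3 reads in each library, so the level of a chain in one library is not independent of that in the other, and 3 reads in both give 2.57 and 3.38 CPM. With that limit, the ratio of CPM in replicate 1 to that in replicate 2 had a median of 0.761 over all 633 chains, with a range of 0.228 to 6.85, and 525 chains were within 2-fold. Among the 122 chains with at least 10 reads in each library the median ratio was 0.85, and 117 were within 2-fold. Mrpl33, a protein of the mitochondrial ribosome, stood apart among the highly read members, with 110 CPM in replicate 1 and 50.6 CPM in replicate 2. Its gene as a whole had 143 and 50 reads, and the share of the recurrent chain was 89.5% and 90% of them.

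The 633 chains held 770 different new splice sites. In 516 chains there was 1 new site, in 100 there were 2, and the most was 9. Shifted ends of annotated exons were the commonest class, with 291 donors (37.8%) and 245 acceptors (31.8%). Together they made up 536 of 770 sites, or 69.6% (95% Clopper-Pearson interval 66.2% to 72.8%, for counting error over sites). New internal exons brought 88 sites (11.4%), introns within an annotated exon 79 (10.3%), new first exons 53 (6.88%) and new last exons 14 (1.82%). Of the 770 sites, 763 occurred in a single member. The sites of 1 gene share their reads and are not independent of each other.

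Many shifted sites lay close to annotated ones. The distance from the nearest annotated site of the same kind had a median of 18 nt, and 230 of 536 were within 10 nt (42.9%, interval 38.7% to 47.2%). Acceptors lay nearer than donors by their median, which was 9 nt (quartiles 3 and 56 nt) and 127 of 245 were within 10 nt (51.8%). For donors the median was 29 nt (quartiles 5 and 192 nt) and 103 of 291 were within 10 nt (35.4%). Distances over 100 nt were found for 99 donors (34%) and 45 acceptors (18.4%), up to 5475 nt for a donor and 161308 nt for an acceptor, in Gm49329. Both kinds moved downstream more often than upstream, 197 of 291 donors (67.7%) and 158 of 245 acceptors (64.5%). A donor that moves downstream lengthens its exon, whereas an acceptor that moves downstream shortens it.

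Single distances stood out. A donor 4 nt downstream was found 47 times (16.2% of shifted donors), against 8 times for the next most frequent donor distance, 5 nt downstream. Of the acceptors, 46 were 3 nt downstream, 20 were 4 nt downstream and 16 were 3 nt upstream.

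**Figure D2:**
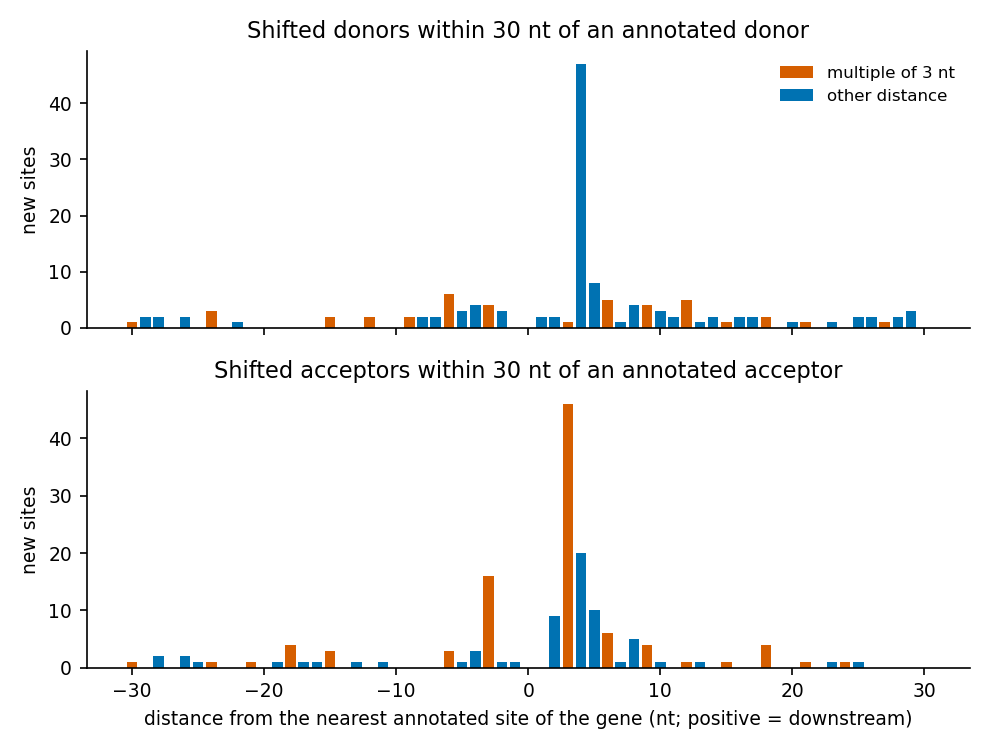
Number of shifted donors and of shifted acceptors (vertical) at each distance up to 30 nt from the nearest annotated site of the gene (horizontal, in nt, downstream positive), coloured by whether the distance is a multiple of 3. The highest bars are 47 donors at 4 nt downstream and 46 acceptors at 3 nt downstream.

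Where the reference letters could be read, most new sites had the letters of splice sites. These are the letters at intron ends as the reads were placed, and the part of the aligner in them was not tested. Letters were read for 432 of 770 sites. Of 203 donors, 178 had GT (87.7%) and 25 had GC (12.3%). Of 229 acceptors, 224 had AG (97.8%), 4 had AT and 1 had GC. The readable sites are those that lie within some annotated exon or promoter window, so sites deep in introns are missing from these counts.

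Transcripts that ran across a short annotated exon often held a large share of their gene. In 40 places of 39 genes, the exon on one side of an annotated exon of at most 30 nt was lengthened by 3 to 29 nt (median 12.5 nt), and the junction ran past the short exon. The short exons measured 3 to 25 nt, with a median of 18 nt, and 41 chains were of this kind. A place was counted only where the shift lengthened the exon, by at most 30 nt. The shifted site was a donor, moved downstream, in 29 places and an acceptor, moved upstream, in 11. These directions and the upper limit of the added length thus follow from the rule. The length added differed from the length of the short exon by at most 5 nt in 23 places and by at most 10 nt in 34, and it was the same in 3. With each length limited to 30 nt, some of this nearness is set by the rule, and how much was not tested. In 12 the net change was a multiple of 3. A junction that skips the short exon without a shift was annotated in 16 of the 40.

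The short exons themselves were seldom read. In 25 of the 40 places no read of either library held both junctions of the short exon, and in 30 the shifted junction had more reads than the short exon in both libraries. In Pitpna the shifted junction had 428 reads and 330 in replicates 1 and 2, the exon of 11 nt had 0 and 0, and plain skipping had 1 and 0. In Pitpnb, the sister gene of Pitpna, a donor shifted by 8 nt stood in place of an exon of 8 nt, with 108 and 91 reads against 0 and 0. Sh3glb2, an endophilin-related gene, had 2 such places. One was a shift of 16 nt past an exon of 15 nt, with 281 and 255 reads. The other was a shift of 4 nt past an exon of 12 nt, with 232 and 220. Junction reads are summed over all models of a library, members or not. The 2 recurrent chains of Sh3glb2 held only 25 and 23 reads. A Sh3glb2 chain outside the set, with the new donor of the second place, had 160 and 161.

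Other members of this kind came from genes of varied roles. Idh3g, a subunit of mitochondrial isocitrate dehydrogenase, had 123 and 83 reads of the shifted junction. Capn2, a calcium-dependent protease, had 96 and 84, Chmp1a, an ESCRT-III component, 89 and 81, and Acap3, a GTPase-activating protein, 158 and 195. In Acap3 a chain outside the set, with the same new acceptor, had 121 and 130 reads. Hacd1, an enzyme of long fatty acid synthesis, had 43 and 22. The shortest exon concerned was that of Rwdd4a with 3 nt, where the reads were placed with 3 bases before the next exon instead, in 29 and 24 reads. In Ergic3 and Atp2c1, a calcium and manganese pump of the Golgi, plain skipping was also read, as it was in some other places. It had 117 and 69 reads beside 169 and 121 of the shifted junction in Ergic3, and 50 and 47 beside 109 and 99 in Atp2c1. In Ap2m1 plain skipping had 38 and 44 reads beside 5 and 11. Ptprz1 and Atp6v0a1 also had more reads of plain skipping in both libraries, and all other places had fewer in both.

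In 9 of the 40 places the short exon was read more often than the shifted junction in both libraries. Bsg, which encodes the cell-surface protein basigin, had 1793 and 1191 reads with its 25-nt exon and 80 and 69 with the acceptor shifted by 28 nt. Selenow, a small selenoprotein, had 2407 and 1190 reads with its exon of 25 nt against 3 and 5. Atp2a2, the calcium pump of the endoplasmic reticulum, had 151 and 171 against 17 and 15. The length of the exon moved with this: exons of 1 to 15 nt had no read with both junctions in 16 of 18 places, and exons of 16 to 30 nt in 9 of 22.

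The same held over all annotated internal exons of genes that had 20 reads or more in both libraries, members or not. Of 105 exons of 1 to 10 nt, 0 were read with both junctions in either library, which allows a share of up to 2.86%. The share read was 12.5% of 104 exons of 11 to 15 nt, 42% of 100 of 16 to 20 nt, 74.9% of 610 of 21 to 30 nt and 88.6% of 5608 of 31 to 60 nt. A member with a shifted site ran across 7 of the 105 shortest exons, 11 of those of 11 to 15 nt, 11 of those of 16 to 20 nt and 9 of those of 21 to 30 nt. Whether the bases of these reads matched the short exon or the lengthened neighbour was not tested, since the reads were not used here.

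**Figure D3:**
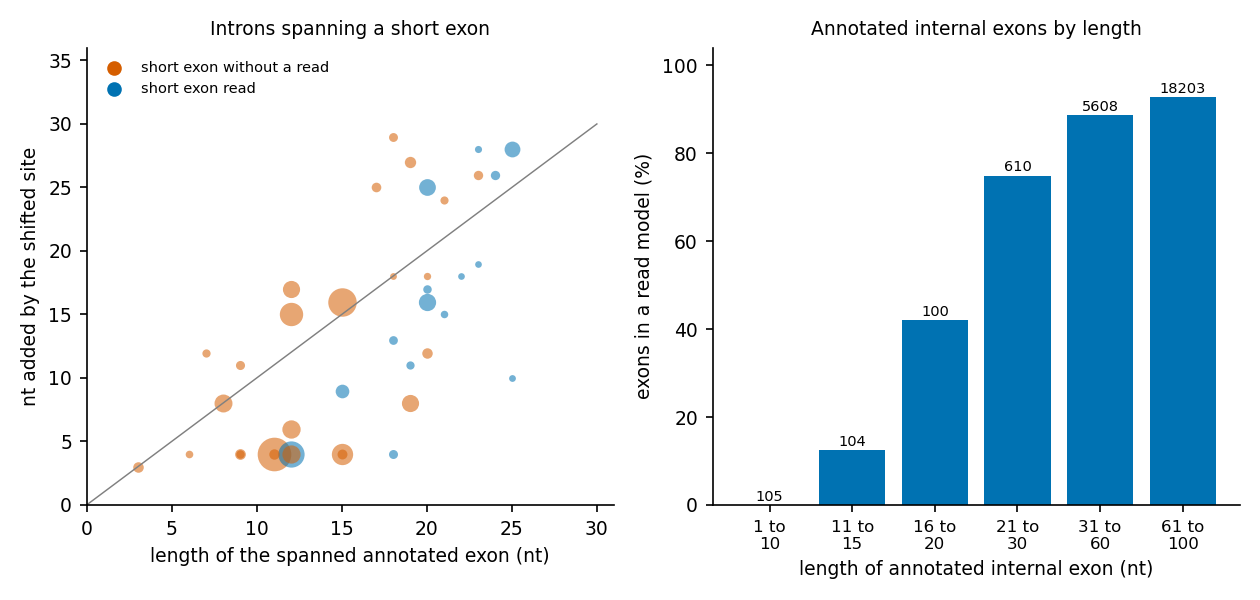
Left, length of the annotated exon run past (nt) against the bases added by the shifted site (nt) for the 40 places, with point area growing with the reads of the shifted junction in both libraries, a line of equal length, and colour for whether any read held both junctions of the short exon. Each of these lengths is at most 30 nt by the rule. Right, percent of annotated internal exons read with both junctions, by length in nt, with the number of exons above each bar; it rises from 0 of 105 at 1 to 10 nt to 92.8% of 18203 at 61 to 100 nt.

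A related placement was found in 3 introns, of which both ends were moved by the same 4 nt. In Pak6, a kinase of the p21-activated family, the moved intron had 33 and 41 reads, and in Ptcd3, a mitochondrial ribosome-associated protein, it had 48 and 50. The annotated intron had 0 and 0 reads in both genes. In Got2, the mitochondrial aspartate aminotransferase, the moved intron had 26 and 9 reads and the annotated one 30 and 20. These 3 introns leave the length of the transcript as annotated.

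Apart from these, 196 chains differed from the annotation by a shift of at most 10 nt. Most such sites were minor forms of their junction. The use of a new site was taken as its reads over the sum of its reads and those of the annotated site spliced to the same partner, where this sum was at least 20 in each library. For the 171 sites shifted by at most 10 nt with such reads, the median use was 4.55% in replicate 1 and 4.72% in replicate 2. Use was under 10% in both libraries for 112 of them and at least 50% in both for 11. The median absolute difference between the 2 libraries was 1.03 percentage points. The chains were chosen for at least 3 reads in each library, so this difference is a description.

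Donors 4 nt downstream of the annotated one, outside the places where a short exon was run past, were mostly of low use. For 25 of these 38 sites with enough reads the median use was 1.12% in replicate 1 and 0.938% in replicate 2, and 22 were under 10% in both. The exceptions with at least 50% in both were Gm21811, with 34 and 46 reads beside 1 and 2 at the annotated donor, and Rundc1, with 52 and 43 beside 8 and 10. Fth1, the heavy chain of the iron store ferritin, had 18 and 4 reads at the new donor beside 3238 and 1985 at the annotated one. Cst3, a secreted protease inhibitor, had 9 and 3 beside 3645 and 2175. Apoe, the lipid carrier made by astrocytes, had 4 and 3 beside 5664 and 4481, and Calm2, a calmodulin gene, had 5 and 3 beside 4105 and 2391. These are genes of high expression, in which a rare form reaches 3 reads. Of the 8 sites of this kind with readable letters, the 4 added bases were GTAG in 3, GTAA in 2, GTGA in 2 and GCAA in 1.

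Acceptors 3 nt away were used more. The median use was 7.55% in replicate 1 and 6.82% in replicate 2 over 39 acceptors 3 nt downstream, and 25.6% and 23.3% over 13 that were 3 nt upstream. All 46 acceptors 3 nt downstream could be read, and the 3 letters between the sites ended in AG in each: AAG in 18, CAG in 16, TAG in 7 and GAG in 5. That AG is the end of the intron as placed. In Ap2a2, a subunit of the clathrin adaptor AP-2, the acceptor 3 nt upstream had 100 and 86 reads beside 229 and 211 at the annotated acceptor. In Ewsr1, an RNA-binding protein, it had 53 and 55 beside 104 and 112. Hif1a, the oxygen-dependent transcription factor, had 10 and 12 beside 29 and 35. In Ogfrl1 the new acceptor had 98 and 92 reads beside 265 and 174, a use of 27% and 34.6%. Among acceptors 3 nt downstream, Puf60, a splicing factor, had 25 and 23 reads beside 325 and 260, and Mettl9, a histidine methyltransferase, 22 and 12 beside 94 and 72. Acceptors 4 nt downstream were of low use, with a median of 1.56% and 1.76% over 15 sites.

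A few sites at short distance had more reads than the annotated site nearest to them, while those of Zer1 and Ntsr2 had fewer. In Dctn2 the donor 10 nt downstream had 314 and 243 reads against 35 and 27 at the annotated donor. The recurrent chain held 79% of the gene's reads in replicate 1 and 81.6% in replicate 2. In Vdac3 and Rab3a the new donor stood 1 nt downstream of the annotated one, and the annotated junction had 0 and 0 reads in both genes. The new donor had 348 and 223 reads in Vdac3 and 309 and 203 in Rab3a. The recurrent chain of Rab3a held only 22% and 22.9% of its gene's reads. The Rab3a donor lies before the start codon, and the reference has GG at the annotated donor nearest to it and GT at the new one. In Zer1, a subunit of a ubiquitin ligase, the donor 6 nt upstream had 44 and 47 reads beside 122 and 111. In Ntsr2, a neurotensin receptor of astrocytes, the donor 7 nt upstream had 42 and 27 beside 203 and 159.

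Shifts of more than 10 nt made up the largest group, with 250 chains in 238 genes. Over 170 sites with enough reads the median use was 6.64% in replicate 1 and 6.66% in replicate 2. Cct6a carried the most reads. An intron of its leading chain had its donor 61 nt downstream and its acceptor 33 nt upstream of annotated sites, and this junction had 312 and 251 reads. For Cct6a, no transcript typed as protein-coding with an annotated start codon, stop codon and coding sequence was found in the annotation. Genes of this kind are counted below as genes without a coding transcript, which does not mean that they are non-coding. In Seh1l, a nucleoporin, an acceptor 1567 nt downstream of the annotated one, after the stop codon, had 80 and 83 reads against 7 and 14. In Klhl23 a donor 346 nt downstream, before the start codon, had 67 and 69 reads against 20 and 10.

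The reading frame was described for shifted sites outside the places where a short exon was run past, by their place in the closest coding transcript. Within the coding span, 66 of 101 acceptors shifted by at most 10 nt moved by a multiple of 3 (65.3%), as did 14 of 59 donors (23.7%). Beyond 10 nt the counts were 33 of 67 acceptors (49.3%) and 38 of 92 donors (41.3%). Before the start codon 13 of 41 acceptors (31.7%) and 26 of 95 donors (27.4%) moved by a multiple of 3 at any distance. No test was made of these shares, since sites share genes and the commonest distances of 3 and 4 nt fix much of them. Of all 770 new sites, 427 lay in the coding span (55.5%), 212 before the start codon (27.5%), 93 after the stop codon (12.1%) and 38 in genes without a coding transcript.

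Translation from the annotated start codon was read on the reference letters for 407 chains. Of the other members, 129 were not readable, 75 lacked the start codon and 21 were in genes without a coding transcript. A chain was readable where all bases up to its stop codon lay in annotated exons or promoter windows. The shares below hold for readable chains and not for all members. In 281 of them (69%) it ended at the annotated stop codon, and in 195 the protein length was also that of the annotation. In 79 (19.4%) another stop codon came first, more than 50 nt before the last exon junction, the position at which transcripts are open to nonsense-mediated decay. Among chains with a single shift in the coding span, whether the frame is kept is fixed by the distance itself, so these counts are a description. Of 92 readable chains with a shift by a multiple of 3, 79 reached the annotated stop, and of 76 with another distance 1 did. Chains with a shift by a multiple of 3 had a median share of 4.51% and 5.08% of gene reads (138 chains). Those with another distance had 2.11% and 2.42% (147 chains). In Ap2a2 the frame gave 939 codons against 938 annotated, and in Ewsr1 656 against 655. The Dctn2 chain gave 38 codons of 402.

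In the group with short exons 24 of 37 chains were not readable. Of the 13 readable ones, 9 reached another stop more than 50 nt before the last junction, and 2 reached the annotated stop. In Pitpna the frame with the 4 added bases ended after 102 of 272 codons, 524 nt before the last junction. Idh3g gave 46 of 393 codons and Chmp1a 34 of 196. These frames hold for the bases as the models place them.

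Introns within an annotated exon were found 40 times in 38 genes, and 39 chains differed from the annotation in this alone. They measured 37 to 3652 nt, with a median of 240 nt. Their reference ends were GT and AG in 32, GC and AG in 6, and GT and AT in 2. The place of these introns in the gene differed from that of the shifted sites, since 25 of 40 lay after the stop codon. Of the 13 in the coding span, 8 had a length that is a multiple of 3. Rfng, a glycosyltransferase that modifies Notch, had 67 and 52 reads of an intron of 133 nt. Gpd1l, a glycerol phosphate dehydrogenase-like enzyme, had 34 and 47 of 993 nt, B230219D22Rik 43 and 35 of 174 nt, and Lrrc47 36 and 37 of 46 nt. All of these lay after the stop codon.

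A repeat of the same letters at both ends was long in few of these introns. Its median length was 1 nt, and 29 of 40 had at most 3 nt. It was at least 8 nt in 8 introns, among them 53 nt in Rfng and 47 nt in Gm15446. With such a repeat the ends of the intron can be placed at several positions. The intron of 84 nt in Gm15446 had 30 and 25 reads, and that of 2093 nt in Zdhhc18 had 29 and 16.

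New exons were fewer, and most lay over 200 nt from annotated ones. At most 200 nt away were 2 new internal exons, 8 new first exons and 0 new last exons. The 45 new internal exons, in 38 genes, measured 24 to 259 nt with a median of 83 nt, and the median gap to the nearest annotated exon was 1701 nt. In the coding span 11 of 17 had a length that is a multiple of 3. Both counts include the Glrb exons of 48, 51 and 72 nt, which overlap and share a donor. The 53 new first exons, in 46 genes, measured 25 to 956 nt with a median of 197 nt, and 21 of them lay outside the annotated span of their gene. The 14 new last exons measured 405 to 6670 nt. In Nell2, a secreted protein of neurons, a new first exon of 165 nt, at chr15:95528608-95528772, 49 nt from the nearest annotated exon, had 80 and 107 reads, and the chain held 6.75% and 9.19% of the gene's reads. This mean of 7.97% became 23.9% where incomplete splice matches and genomic models were left out of the gene's reads.

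Snrpn was the gene with the most recurrent chains. It encodes a spliceosomal protein, is expressed from the paternal allele in brain, and starts from a long series of upstream exons. Its 9 chains had 18 new sites and held 237 of 2249 reads in replicate 1 and 155 of 1450 in replicate 2, or 10.5% and 10.7%. Their first exons lay at chr7:60047889-60047977 with 118 and 63 reads, at chr7:60216768-60216871 with 46 and 42, and at chr7:60170887-60171001 with 38 and 23. Another lay 309859 nt from the nearest annotated exon, the largest gap of any new first exon. A new internal exon of 104 nt at chr7:60071885-60071988 was shared by 4 of the chains, with 114 and 96 reads at its acceptor. This exon holds the sites used by the most members.

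In some other genes chains with new exons made up more of the gene than in Snrpn, and in Rbfox1 less. Rdx, which encodes radixin, a link between membrane and actin, had a chain with a new internal exon and a new last exon, with 34 and 24 reads or 37.8% and 32% of the gene. Rnf130, a ubiquitin ligase, had a new last exon in 22 and 12 reads (32.8% and 25.5%), and Fbxo27 in 9 and 11 reads (33.3% and 45.8%). Rbfox1, a splicing regulator of neurons, had a new first exon of 200 nt in 23 and 22 junction reads, and its chain had 9 and 8 reads of 119 and 104, a mean share of 7.63% that became 18.1% in the same setting. In Glrb, the beta subunit of the glycine receptor, 3 chains shared a new donor and held 24 of 187 and 27 of 202 reads. Behind Snrpn, the genes with most members were Cpe and Nsmf with 4 chains each, all with shifted sites and no new exon. They held 38 and 31 of 4888 and 5157 reads in Cpe, a peptide-processing enzyme, and 27 and 28 of 1060 and 1277 in Nsmf.

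A recurrent chain was usually a minor transcript of its gene. The median share of gene reads was 5.37% in replicate 1 and 5.49% in replicate 2, and the range was 0.0446% to 95.3% and 0.0462% to 100%. Under 5% of the gene's reads were held by 300 chains in replicate 1 and by 299 in replicate 2. Summed over genes, members held 4.79% of 179474 reads in replicate 1 (95% Clopper-Pearson interval 4.7% to 4.89%) and 4.94% of 147068 in replicate 2 (4.83% to 5.05%), a mean of 4.87% ± 0.103 (SD, n = 2). Yet 39 chains held at least 50% in both libraries, 26 of them in genes of 20 reads or more in both. The closest annotated transcript had no read in either library for 21 of the 39. In 73 chains the member was the most read model of its gene in both libraries.

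The 37 chains that differed only by a shift across a short exon had a median share of 41.7% in replicate 1 and 36.4% in replicate 2, and 14 of them held at least 50% in both. They were 5.85% of the chains and held 19.7% and 18.2% of the members' reads. The median share was 3.86% and 3.35% for shifts of at most 10 nt, 4.57% and 4.69% for longer shifts, 4.62% and 6.67% for new internal exons, 6.38% and 6.52% for new first exons, 9.8% and 12.9% for chains with more than 1 kind of change and 10.6% and 10.8% for new introns within an exon. The 7 chains with a new last exon had medians of 32.8% and 25.5%, and the 3 with both intron ends shifted by the same distance 33.7% and 39.6%. At least 50% in both libraries was held by 9 chains with a shift of at most 10 nt and by 8 with a longer shift. The shares entered no rule for the groups, but reads chose the members, so these medians are a description.

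Among genes of 20 reads or more in both libraries, the highest shares were found in Hacd1, with 95.3% of 43 reads and 87.5% of 24, in Pitpna, with 91.5% of 461 (interval 88.6% to 93.9%) and 89.1% of 359 (85.4% to 92.2%), and in Mrpl33. Seh1l held 85.4% and 82.7%, Cct6a 81.5% and 85.5%, Vdac3 81.8% and 84.9%, Capn2 82.4% and 82.1%, Chmp1a 79.5% and 79.2% and Rwdd4a 76.5% and 80.8%. Of the 10 such chains with the highest share, 6 ran across a short exon. These are Hacd1, Pitpna, Mrpl33, Capn2, Chmp1a and Rwdd4a. In genes of fewer reads, Gm29642 reached 9 of 10 reads and 3 of 3, Gm2007 10 of 12 and 9 of 9, and Gm48695 5 of 6 and 4 of 4.

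**Figure D4:**
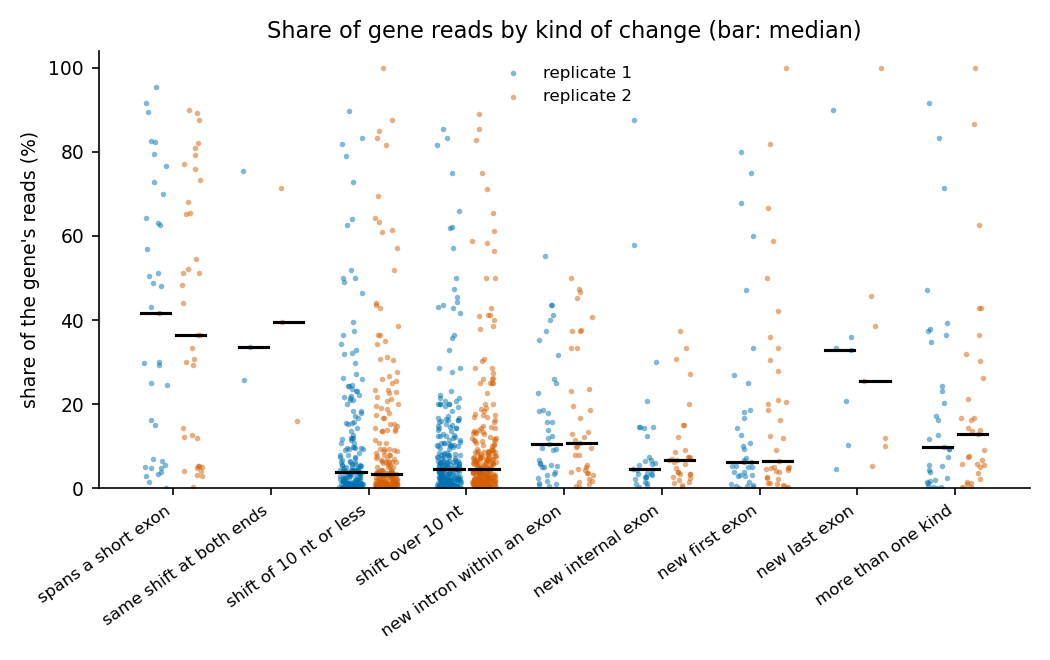
Percent of gene reads held by each recurrent chain, by kind of change, with 1 point a chain in each library and a bar at the median. Chains that run across a short annotated exon have medians of 41.7% and 36.4% in replicates 1 and 2, against 3.86% and 3.35% for shifts of at most 10 nt.

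The share of gene reads was compared between the libraries with a two-sided Fisher's exact test, run on every spliced transcript that had 3 reads or more, and 20 or more of its gene, in both libraries. Reads are the unit of this test, so it compares these 2 libraries and not groups of animals. Of 13695 transcripts tested, 60 passed a Benjamini-Hochberg adjusted p of 0.05, which is 0.438%, with a higher share in replicate 1 for 20 and in replicate 2 for 40. Of the 633 members 571 were tested and 0 passed. The members had median reads of only 6 and 5, so the count of 0 does not show that their shares were equal. Without adjustment 16 members (2.8%) and 822 of all transcripts (6%) had an exact p under 0.05. Members had to have 3 reads with the same label in both libraries. The lowest adjusted p of a member was 0.197 by Fisher's exact test, for Nudt5, which clears damaged nucleotides. Its chain had 19 of 23 reads in replicate 1 and 7 of 21 in replicate 2. The median absolute difference of the share between libraries was 1.28 percentage points.

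Gene lists were counted over genes that had 20 reads or more in both libraries. A recurrent chain was found in 501 of 6607 such genes (7.58%). The share rose with the reads of the gene, from 3.69% of 3090 genes with 20 to 49 reads to 37.6% of 181 genes with at least 500. Astrocyte genes had a member in 12 of 29 (41.4%), with median gene reads of 391 and 403 against 69 and 56 over all 6607. Synaptic vesicle and release genes had one in 11 of 40 (27.5%), with median gene reads of 224 and 244. Ion channel, pump and transporter genes had one in 8 of 32 (25%) and genes of the cytoskeleton and motors in 11 of 66 (16.7%). The part of gene depth in these counts was not tested. Cytosolic ribosomal protein genes, with median gene reads of 205 and 104, had one in 1 of 74 (1.35%). Genes of the mitochondrial respiratory chain, with medians of 349 and 162, had one in 5 of 76 (6.58%).

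Within these lists most members were minor forms. Among synaptic genes, Snap25, a SNARE protein, had 12 and 16 of 1418 and 1215 reads, Cplx1, a complexin, 9 and 8 of 721 and 602, and Rab3a was the exception with 22% and 22.9%. Cnih2, an auxiliary subunit of AMPA receptors, had a donor 4 nt upstream with the letters GC in 53 and 49 reads beside 2290 and 1742 at the annotated donor. Among splicing regulators, which had a member in 4 of 52 genes (7.69%), Qk had 12 and 19 of 191 and 214 reads and Khdrbs3 16 and 5 of 470 and 290. Of glial genes, Sparcl1 had 20 and 11 of 1625 and 1801, Gfap, the intermediate filament of astrocytes, 9 and 4 of 417 and 438, Mobp, a myelin protein, 7 and 3 of 203 and 195, and C1qc, a microglial complement gene, 6 and 3 of 97 and 75.

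Beside the members stand the chains with an unannotated site that were read in both libraries with fewer than 3 reads in 1 of them or both (3130), in replicate 1 alone (18288) and in replicate 2 alone (17395). Shifted ends were 69.6% of the members' new sites, against 63.5%, 60% and 58.7% in those sets. New internal exons were 11.4% against 17.3%, 21.3% and 23.7%. Of chains read in 1 library alone with at least 3 reads, the 305 in replicate 1 had 68.7% shifted ends and 12.4% internal exons, near the members' values. The 243 in replicate 2 had 53.3% and 28.9%. The share of shifted sites within 10 nt was near the same in all 4, at 42.9%, 42%, 42.3% and 41.8%. What differed was the distance within that range. Acceptors 3 nt either way were 25.3% of the members' shifted acceptors, against 16.8%, 10% and 11.2%. Donors 4 nt downstream were 16.2% of shifted donors, against 19.1%, 24.7% and 21.4%. In chains of at least 3 reads in replicate 1 alone and in replicate 2 alone, such acceptors were 18.9% and 18.4%. Such donors were 22.9% and 22.8% there. The part of read count in these differences was not tested. Of the chains with at least 3 reads, 80.7% of 1581 in replicate 1 were read in replicate 2 under any label, and 83.2% of 1446 in replicate 2 were read in replicate 1. With the same label in both, as the rule requires, these shares were 67.5% and 68.7%. Of chains with 1 read, 11.6% and 12.6% were found in the other library. These sets were formed by the same read counts as the members, so the values are a description.

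The rule also depends on the label that each library's own table gave to a chain. A further 231 chains had at least 3 reads in each library and the unannotated-site label in only 1 of them. In the other library 199 of these were labelled as new combinations of known sites and 32 as incomplete matches, although the introns were the same. They held 5900 reads in replicate 1 and 4615 in replicate 2. Of these, the following were chosen after their values were seen. Nrgn, a calmodulin-binding protein of neuronal dendrites, led them with 2368 and 1550 reads, or 94.5% and 94.2% of its gene, at an acceptor 17 nt upstream of the annotated one. Uchl1, a neuronal deubiquitinase, had 582 and 241 reads with a donor 9 nt downstream. Hnrnpk, an RNA-binding protein, had 208 and 185 in 1 chain and 163 and 165 in another, both with a donor 16 nt downstream. With these the set would hold 864 chains. A further 237 chains with an unannotated site and at least 3 reads in each library carried another label in both. They held 2633 and 2442 reads, and 51 of them shared a new site with a member. In 4 members the 2 tables named different genes for the same chain (Gm13205 and Pex14, Cfl1 and Efemp2, Fam219a and 1110017D15Rik, Coq3 and Pnisr), and their share was taken from the gene named in each library.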

How the data were processed

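The authors deposited a table of unscaled read counts for each library, with 1 row a transcript model, per the file headers. Per the file headers too, alignment was to mm10, and reads were assigned to GENCODE M21 transcripts or to models that TALON added separately in each library. The aligner and its settings are not given in the sources used for this text. Models with 1 read are listed.

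From these counts, a chain of one library was paired with that of the other on the same chromosome and strand with identical introns, and CPM was computed over all reads of a table. A new site is an intron end absent from the annotated transcripts of its gene. It was classed as a shifted end where its exon overlaps an annotated exon, as an intron within an annotated exon, or as part of a new internal, first or last exon. All models with a gene's identifier count as its reads. Shares of gene reads were compared with Fisher's exact test and Benjamini-Hochberg adjustment over all spliced transcripts tested, at a threshold of 0.05, after a check of the code on simulated data. The tools were Python 3.11.15, matplotlib 3.10.9, numpy 2.4.6 and scipy 1.17.1.

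The members, gene lists, tests and alternatives were chosen with earlier results of these data known. The rule for named genes took the 20 chains with the highest mean CPM, the 10 with the highest share of gene reads among genes of 20 reads or more in both libraries, 4 in each class of change and 3 in each gene list by mean CPM, the 5 genes with the most chains and the 5 sites used by the most chains. It would also have named chains past the threshold of the share test, of which there were 0. Genes shown with sequences, and others named for a distance, a short exon or a new exon, were chosen after their values were seen. Alternatives were other read thresholds, matching within 2 nt, annotated sites of any gene, other counts of a gene's reads and each library alone. Those chosen after seeing the data were the label in at least 1 library, other limits for a short exon and near-copy genes left out. Some named genes are not reported here.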

Additional observations from a re-analysis of the deposited data

How the results depend on the processing

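No paired analysis was possible because the study has 1 group, so that replicate numbers pair no samples. The number of chains was 1181 with at least 2 reads in each library, 291 with at least 5 and 122 with at least 10, and 1446 to 1581 with 1 library alone at 3 reads. It was 636 with intron ends allowed to differ by 2 nt, 864 with the label required in at least 1 library and 630 without near-copy genes. The share of new sites that are shifted ends was 73.2% with at least 10 reads in each library, 79.3% with each chain counted by its first new site, and 64% to 68.7% with 1 library alone. The share of these within 10 nt was 50.9% with at least 10 reads, and 41.9% to 42.1% with 1 library alone. The members' share of gene reads was 5.32% of spliced models, 5.72% of annotated, new combination and unannotated-site models, 6.72% with the label required in at least 1 library, and 4.79% to 4.94% with 1 library alone. Of 90 named chains, the share rose by over 1.5 times in 4 under the first of these and in 10 under the second, among them Nell2, Rbfox1 and Kif1b. Places with a short exon numbered 31 at a limit of 20 nt and 18 at 15 nt. The share test called 0 members in all 6 settings, with 11 to 17 at an unadjusted exact p under 0.05, and leaving out a library leaves it no comparison. With a threshold of 3 reads, chains under about that level in either library are missed. The share of genes with a member rose with the reads of the gene, but the part of depth in the number of members was not tested.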
